A study of Mus musculus with 6 samples.

Results

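Alanine tRNAs, tRNA-Ala, were followed in mouse brain small RNA, with and without TRMT1L. The members were all tRNA references named for alanine with the anticodon AGC, CGC or TGC. At least 1 of the 6 libraries listed 19 of them among 190 tRNA references in all, and 10 among 145 were listed in all 6. Of the 19, 9 carried AGC, 3 carried CGC and 7 carried TGC. The wild-type group (WT) and the knockout group (KO) each held 3 libraries, which the design text calls biological triplicates. The labels give the genotype as WT or as TRMT1L KO and the tissue as brain, and give no age, sex, strain, allele or agent. Nothing in the labels says whether the deletion was confined to a cell type. RNA was depleted of ribosomal RNA and kept between 30 and 150 bp before library construction. The comparison addressed which tRNA positions and tRNAs differ in the absence of TRMT1L, a paralogue of the tRNA guanosine methyltransferase TRMT1.

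Alanine tRNAs read the 4 GCN codons. In those with an A at the first anticodon base, position 34, a deaminase converts the A to inosine, which sequencing reads as G. The A at position 37, next to the anticodon, is converted to inosine and then to its methylated form in eukaryotic tRNA-Ala. Guanosine 26, between the D arm and the anticodon arm, is the substrate of TRMT1, and adenosine 58 in the T loop is commonly methylated. A methyl group on a base-pairing face can leave mismatches, deletions or stops in the reads. tRNAs are also cut into shorter RNAs, among them fragments that keep the 5′ end and fragments that keep the 3′ CCA end.

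The sequences below carry the results that follow. Each is the stretch that the deposited tables listed, 5′ to 3′, and capitals mark the anticodon of Ala-TGC-6 and Ala-AGC-4, G26 of Ala-TGC-2 and A58 in both 3′ ends. Ala-TGC-6 has A, not G, at position 26.
Ala-TGC-6: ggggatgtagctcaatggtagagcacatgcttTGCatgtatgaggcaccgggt
Ala-TGC-2, 5′ stretch: ggggatgtagctcagtggtagagcGcat
Ala-TGC-2, 3′ stretch: ttcgAtccccggcatctccacca
Ala-TGC-1, 3′ stretch: tcgAtccccggcacctccacca
Ala-AGC-4: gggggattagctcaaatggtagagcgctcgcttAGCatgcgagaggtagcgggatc

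The 5′ stretch of Ala-TGC-2 was identical over 28 bases in 6 references, namely AGC-3, AGC-8, CGC-1, TGC-2, TGC-3 and TGC-4. Its last 18 bases were shared by 5 references and its last 23 by 3. Ala-TGC-2 and Ala-TGC-3 had the same counts in all 321 listed rows and are counted once among members or sites with distinct counts. Ala-AGC-3 and Ala-AGC-8 had the same counts in 90.7% of their shared rows, and Ala-AGC-5 and Ala-AGC-10 in 66.4%. These members are therefore not independent of each other. RefSeq lists 33 mouse tRNA-Ala genes on GRCm38.p6, of which 13 carry AGC, 9 of them on chromosome 13, 9 carry CGC, 5 of them on chromosome X, and 11 carry TGC, 7 of them on chromosome X. The references were not matched to single genes, so no coordinates are given for them.

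The libraries held 6151209 to 6295061 base calls in WT and 7981301 to 8797395 in KO, so each KO library was deeper than each WT library. tRNA-Ala took 0.429% to 0.667% of the base calls in WT and 0.795% to 1.01% in KO. Reads that match several copies are counted on each, and positions with fewer than 30 reads are left out of these shares. The part of depth in them was not tested. No tRNA-Ala reference neared the depth limit of about 8000 reads, since the highest coverage in any library was 455. The files cover tRNA references alone, so Trmt1l itself and markers of brain cell types were not analysed here. In RNA of whole brain, fewer cells of a type and less RNA per cell cannot be told apart. Values for the members are highest per-position coverage in reads unless another quantity is named.

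Ala-TGC-6 was higher in KO and passed the test of level, the one member to do so among references listed in all 6 libraries with no library left out. Its highest coverage was 118, 118 and 113 reads in WT and 455, 387 and 316 in KO, or 116 ± 2.89 against 386 ± 69.5 (SD, n = 3 each). The lowest KO library stood at more reads than any WT library, and the WT libraries lay close together. Scaled to each library's base calls (reads per 1000000 base calls), the highest coverage was 19.2, 18.7 and 18.01 in WT. In KO it was 54.8, 48.5 and 35.9, and the groups stayed apart. The depth limit holds down the base calls of references that reach it, so this scaling does not set depth aside in full. The log2 fold change of KO over WT was 1.25 (SE 0.220), with an adjusted p of 0.00188 by edgeR's quasi-likelihood test across all 145 references. Over the 13 alternative settings the log2 fold change ran from 0.78 to 1.34 and the adjusted p from 2.73e-06 to 0.0410. Among the 10 members tested, 9 of them with distinct counts, 1 was called, and over all references 22.8% were called in either direction and 12.4% as higher in KO.

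The order of the members changed around Ala-TGC-6. Within WT the highest mean coverage belonged to Ala-AGC-4 at 176 ± 43.1 reads, with Ala-AGC-5 at 170.3 ± 45.5 and Ala-AGC-10 at 170 ± 46 next. Ala-TGC-2 at 117 ± 22.3, Ala-CGC-1 at 116 ± 22.7 and Ala-TGC-6 followed in WT, and these neighbours did not differ beyond their spread. Ala-AGC-3 at 59 ± 37.4, Ala-TGC-4 at 42.3 ± 9.29 and Ala-AGC-8 at 40 ± 5.57 reads were the lowest of those listed in every WT library. Within KO the order was led by Ala-TGC-6, then Ala-AGC-4 at 282 ± 19.98, Ala-AGC-5 at 269.7 ± 18.1, Ala-AGC-10 at 268 ± 18.03, Ala-CGC-1 at 167 ± 21.6 and Ala-TGC-2 at 166 ± 20.1 reads. Ala-AGC-3, Ala-TGC-4 and Ala-AGC-8 stood at 107 ± 42.6, 107 ± 33.05 and 106 ± 40.9 reads in KO, and did not differ from each other beyond their spread.

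**Figure D1:**
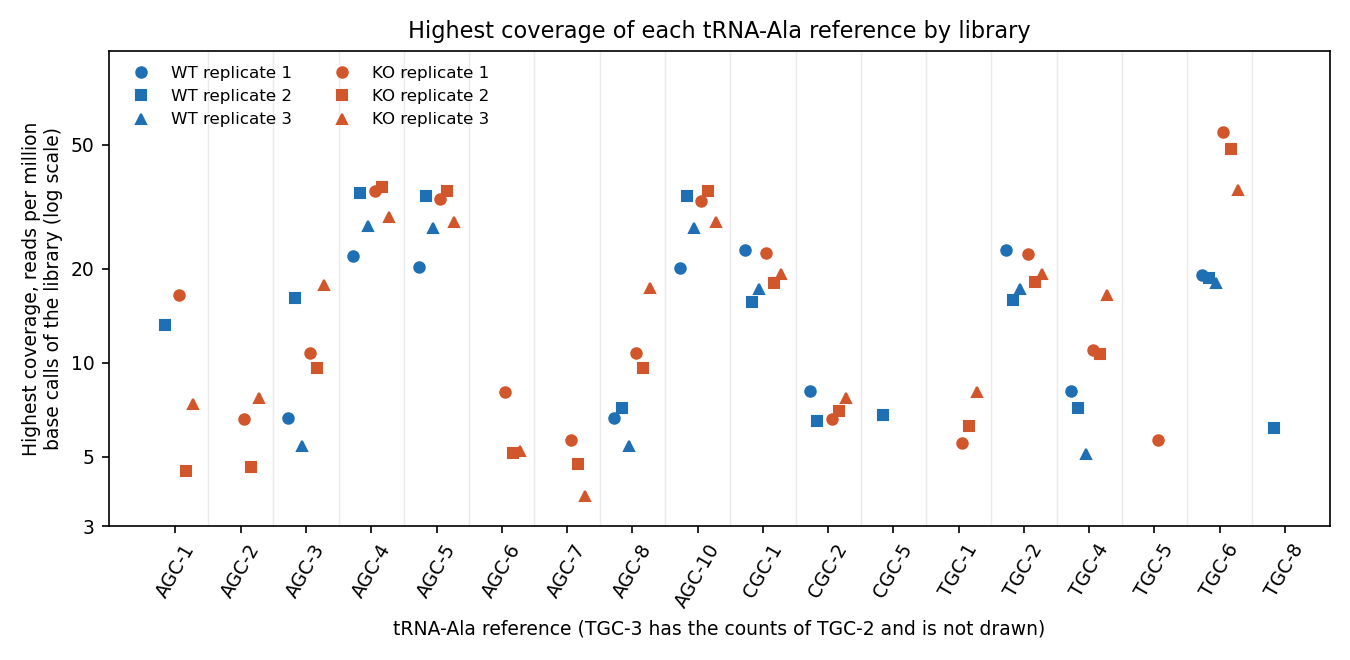
Highest per-position coverage of each tRNA-Ala reference, scaled to the base calls of its library (reads per 1000000 base calls, log scale), with 1 point per library (blue WT, orange KO, symbol for the replicate); a missing point had fewer than 30 reads at every position. Ala-TGC-6 at the right stands at 18.01 to 19.2 in WT and 35.9 to 54.8 in KO, while the 2 genotypes overlap for Ala-AGC-4 and Ala-TGC-2.

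The 8 other members with distinct counts did not pass the test. Ala-AGC-8 had 41, 45 and 34 reads in WT and 89, 77 and 153 in KO, with a log2 fold change of 0.91 (SE 0.298, adjusted p 0.0558, edgeR). Ala-TGC-4 had 50, 45 and 32 reads in WT and 91, 85 and 145 in KO, with 0.84 (SE 0.287, adjusted p 0.0655, edgeR). Both pairs of groups were apart in reads without passing the threshold after scaling. Ala-AGC-10 was at 124, 216 and 170 reads in WT and 273, 283 and 248 in KO, and its log2 fold change was 0.17 (adjusted p 0.664, edgeR). Ala-TGC-2 was at 142, 100 and 108 reads in WT and 185, 145 and 169 in KO, with 0.02 (adjusted p 0.948, edgeR). For both, KO reads exceeded every WT value, but the genotypes overlapped once scaled to the base calls. The fitted folds changed sign under upper-quartile scaling (-0.29 and -0.47). That scaling also lowered the median fold of all references, and both stayed above that median. All 9 members with distinct counts had a fitted log2 fold change above 0, against 49.7% of all 145 references, and their median was 0.19, against -0.00412. Groups of scaled counts (CPM) did not overlap for 3 of 9 members with distinct counts, and for 33.8% of all references. These 9 members are not independent values. AGC-4, AGC-5 and AGC-10 had nearly the same coverage, as did CGC-1 and TGC-2, and AGC-3, AGC-8 and TGC-4 share their 5′ stretch. The shares over all references count every copy.

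Ala-AGC-3 depended on 1 WT library. It was listed at 41, 102 and 34 reads in WT and 89, 77 and 156 in KO, with a log2 fold change of 0.36 (adjusted p 0.627, edgeR). In WT replicate 2 the peak lay at base 43, a stretch that no other library listed, and 86 of 102 bases at base 48 there were read as G where the reference has C (C48G, counted from the 5′ end of the reference). Without that library the log2 fold change was 1.02 (adjusted p 0.0224) and 3 members were called, namely AGC-3, AGC-8 and TGC-6. The 5′ stretch of this reference, where all 6 libraries had reads, is the one shared with TGC-2.

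Coverage along Ala-TGC-6 ran over the same stretch in both genotypes. Between 82.2% and 90.5% of the highest coverage began at base 1, so most reads kept the 5′ end in every library. Coverage fell after base 27, and the share kept at base 29 was 91.5%, 76.3% and 91.2% in WT and 71.9%, 85.8% and 71.4% in KO. Those groups overlapped (exact two-sided permutation test, p = 0.2, n = 3 each). Reads then ran through the anticodon to base 53, where 91, 87 and 94 remained in WT and 259, 256 and 169 in KO. The next base had fewer than 30 reads in 5 libraries and 36 in KO replicate 1. Listing thus ended at the start of the T loop, at canonical position 54 in 5 libraries and 55 in KO replicate 1, and nothing of A58 or the CCA end of this tRNA was listed.

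**Figure D2:**
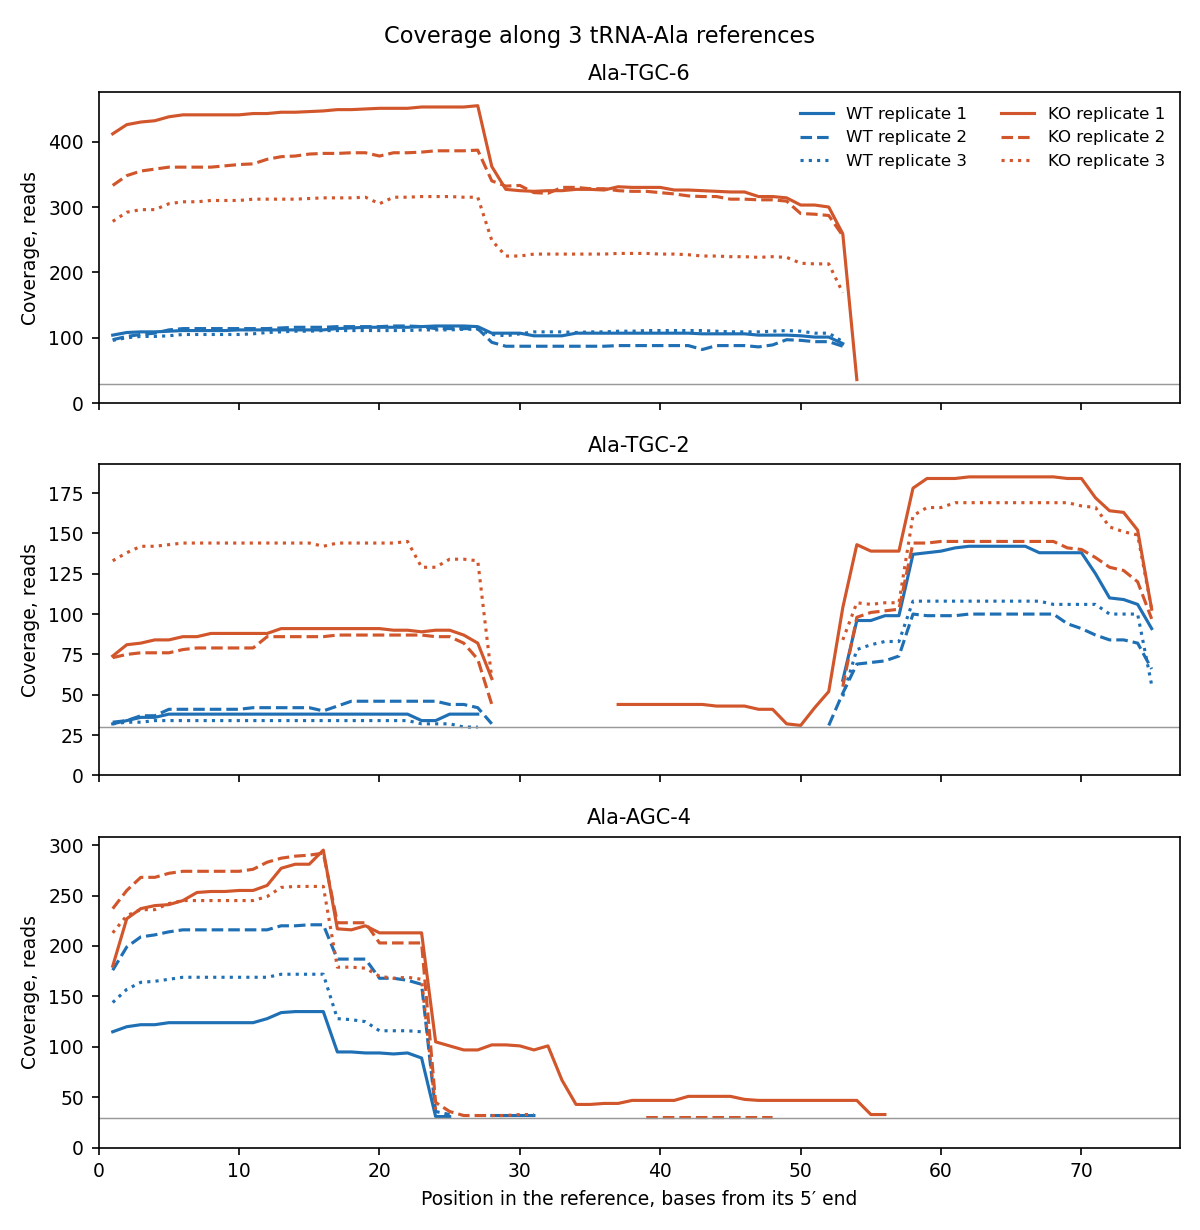
Coverage in reads (linear axes, each from 0) by position in the reference for Ala-TGC-6, Ala-TGC-2 and Ala-AGC-4, with 1 line per library (blue WT, orange KO, line style for the replicate); the grey line is the listing minimum of 30 reads and gaps are positions below it. Ala-TGC-6 is covered from base 1 to base 53 with KO above WT throughout, Ala-TGC-2 splits into a 5′ and a 3′ stretch, and Ala-AGC-4 falls after base 16 and again after base 23.

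The 5′ parts, everything before the anticodon, were then compared. Ala-TGC-6 had a log2 fold change of 1.08 (SE 0.208, adjusted p 0.00304, edgeR). The 5′ stretch of Ala-TGC-2 peaked at 38, 46 and 34 reads in WT and 91, 87 and 145 in KO, and its log2 fold change was 0.78 (SE 0.260, adjusted p 0.0435, edgeR). All KO libraries of this stretch were above all WT libraries. Of 8 members with distinct counts, 3 were called, all higher in KO, namely TGC-2 with its copy TGC-3, TGC-4 and TGC-6. Over all 120 references tested there, 33.3% were called in either direction and 18.3% as higher in KO. These shares count every copy, such as Cys-GCA-5 and Cys-GCA-10, which had the same counts and were called as higher. They also hold references at the depth limit, such as Gly-GCC-2, called as lower at 8007 or 8008 reads in each library. Scaled counts did not overlap between genotypes for 5 of 8 members with distinct counts, and for 46.7% of all references. The calls of TGC-2, TGC-3 and TGC-4 rest on 1 shared stretch and were lost with DESeq2 (TGC-2 adjusted p 0.0579), with upper-quartile scaling (TGC-2 log2 fold change 0.43, adjusted p 0.217) and without any 1 of the libraries other than WT replicate 2, where TGC-6 alone passed. Over the 6 omissions the log2 fold change of Ala-TGC-2 ran from 0.50, without KO replicate 3, to 0.90, with adjusted p-values from 0.0446 to 0.218. With median in place of highest coverage these calls held, and AGC-3 and AGC-8, which share the stretch, were called as well.

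In the 3′ part, everything after the anticodon, Ala-TGC-6 alone was called among 3 members with distinct counts, against 3.39% of 118 references in either direction and 1.69% as higher in KO. Its coverage there averaged 105 ± 7.21 reads in WT and 296 ± 58.04 in KO, a log2 fold change of 1.06 (SE 0.266, adjusted p 0.0451, edgeR). That call was lost with median coverage (adjusted p 0.164) and without any 1 of the libraries other than KO replicate 3. Over the 6 omissions the adjusted p-values ran from 0.0292 to 0.224 and the log2 fold changes from 0.96 to 1.27. Over all 11 alternative settings, median coverage among them, the log2 fold change kept to that range. The 3′ part of Ala-TGC-2, Ala-TGC-3 and Ala-CGC-1, which share their last 23 bases, was not called. For Ala-TGC-2, 5′ over 3′ coverage as a log2 ratio was -1.56 ± 0.401 in WT and -0.66 ± 0.407 in KO (SD, n = 3 each). The WT values were -1.90, -1.12 and -1.67 and the KO values -1.02, -0.74 and -0.22, so the groups did not overlap. The difference of 0.90 (SE 0.297) did not pass the test (adjusted p 0.213, limma), and 0 of 2 members with distinct counts passed, against 5.38% of 93 references. At an unadjusted p under 0.05, Ala-TGC-2 and the identical Ala-TGC-3 remained (p 0.0279).

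At position 37 of Ala-TGC-6, T was read in the KO libraries alone, a difference that did not pass adjustment. Any mismatch was found in 19.6%, 21.8% and 28.2% of bases in WT and 27.6%, 16.5% and 22.4% in KO, and these groups overlapped (exact permutation p = 0.9). Read as G, the A was found in 21 of 107, 19 of 87 and 29 of 103 bases in WT, or 23.2% ± 4.43, and in 60 of 322, 43 of 328 and 43 of 228 in KO, or 16.9% ± 3.26. Read as T, it was found in 0 of 107, 0 of 87 and 0 of 103 bases in WT, for which 3 reads would make 2.80%, 3.45% and 2.91%, and the upper Wilson 95% bounds were 3.47%, 4.23% and 3.60%. In KO, T was read in 29 of 322, 11 of 328 and 8 of 228 bases, or 9.01%, 3.35% and 3.51%, with Wilson 95% intervals of 6.34% to 12.6%, 1.88% to 5.90% and 1.79% to 6.76%. The lowest KO share, 3.35%, is under all 3 WT upper bounds, and the next, 3.51%, is under those of WT replicates 2 and 3, so differences of that size were at the limit of the WT depth. For both G and T the groups did not overlap, each with an exact two-sided permutation p of 0.1, the smallest that 3 against 3 libraries can give. These 2 values were among 13 read off after the data were seen, and their adjusted p was 0.65.

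**Figure D3:**
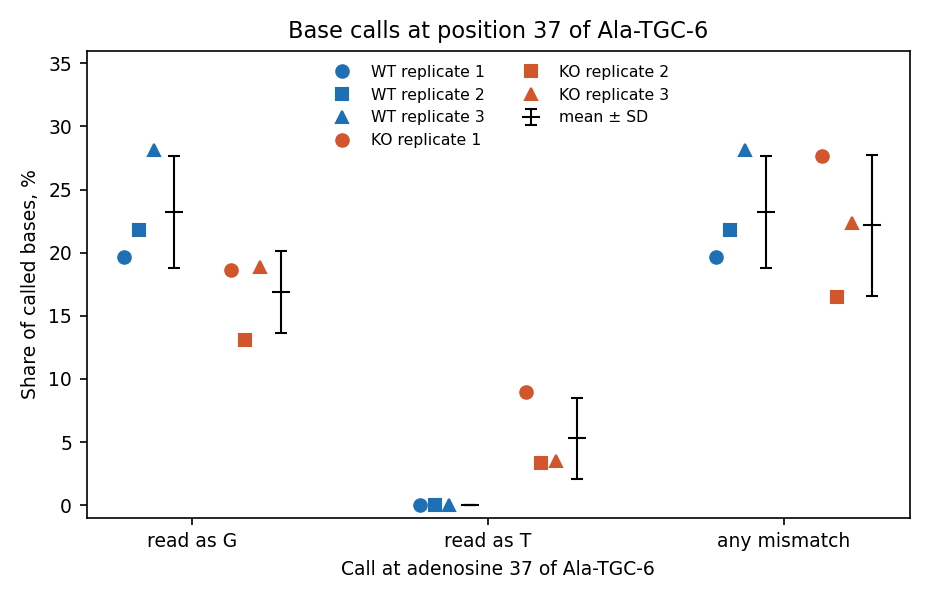
Share of called bases at position 37 of Ala-TGC-6 (an A in the reference), in percent, read as G, read as T or as any base other than A, with 1 point per library (blue WT, orange KO) and the mean ± SD of 3 libraries in black. G lies between 19.6% and 28.2% in WT and between 13.1% and 18.9% in KO, T is at 0 in WT and between 3.35% and 9.01% in KO, and the total overlaps.

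T at position 37 was also listed in tRNA-Ala with the anticodon AGC, where coverage reached it in a few KO libraries. Ala-AGC-4 was read as T in 15 of 44 bases (34.1%) in KO replicate 1, with the same counts on Ala-AGC-6, and Ala-AGC-5 in 17 of 33 bases (51.5%) in KO replicate 2. WT libraries had fewer than 30 reads there on these 3 references, so no comparison could be made on them. Position 43 of Ala-TGC-6, a G, was read as A in 28.04%, 13.6% and 8.11% of bases in WT and in 3.68%, 7.89% and 15.4% in KO, and the groups overlapped (exact permutation p = 0.4).

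At guanosine 26 no mismatch was found in any of the members that could be compared. Ala-AGC-3 and Ala-AGC-8 among AGC, and Ala-TGC-2, Ala-TGC-3 and Ala-TGC-4 among TGC, had 0 mismatches in each of the 6 libraries. The upper Wilson 95% bounds ran from 2.93% to 11.4% for TGC and from 2.63% to 12.5% over all AGC references with 0 mismatches, so smaller rates were not detectable at this depth. Mismatches at 26 were read in KO replicate 1 alone, with 2 of 89 bases in Ala-AGC-4, 2 of 62 in Ala-AGC-10, 2 of 65 in Ala-AGC-5 and 3 of 23 in Ala-CGC-2. Some reads skipped the base. In Ala-TGC-2 these were 4 of 38 reads in WT replicate 1 and 7 of 134 in KO replicate 3, and in Ala-CGC-2 they were 4 of 32 in WT replicate 2, 13 of 36 in KO replicate 1 and 2 of 46 in KO replicate 3. Among AGC references other than Ala-AGC-1, gaps were found in 9 of 15 listings in KO, up to 15.6% in Ala-AGC-4, and in 2 of 6 in WT, at 2.63% in both Ala-AGC-3 and Ala-AGC-8, where a listing is 1 reference in 1 library. Ala-AGC-2 had gaps in all 3 KO libraries, in 3 of 51, 4 of 37 and 5 of 68 reads. Several of these references were listed in KO alone, and the difference was not tested. Listings of references that share reads are not independent. In KO replicate 1 the gaps were in 8 reads of Ala-AGC-4, 8 of Ala-AGC-10 and 9 of Ala-AGC-5. The same reads can stand on all 3, as can the 2 mismatches of each. Both WT listings with gaps were 1 of 38 reads in WT replicate 1.

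At the wobble position of tRNA-Ala-AGC, few bases were read. Ala-AGC-4 had 43 bases at A34, all in KO replicate 1, of which 16 were G and 4 were C. Across other tRNAs with A34 the share read as G was 82.4% to 94.6% in tRNA-Ile-AAT, 65.6% to 94.2% in tRNA-Leu-AAG, 95.2% to 100% in tRNA-Val-AAC and 0% to 9.38% in tRNA-Arg-ACG. The 37.2% of Ala-AGC-4 lay between these families, in 1 library and with no replicate. The first anticodon base of Ala-TGC-6, a T, was read as T in all but 3 bases over the 6 libraries, with 1 of 325 in KO replicate 1 and 2 of 228 in KO replicate 3 (exact permutation p = 0.4).

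The 3′ stretch of Ala-TGC-2 was a nested set of reads with 3 starts. As a share of coverage at position 63, reads began at position 54 in 28.5% ± 6.64 of WT and 29.1% ± 6.31 of KO, and at position 55 in 31.02% ± 3.28 of WT and 31.1% ± 4.62 of KO (exact permutation p = 1 for both). Reads that began at position 59, one base 3′ of A58, made up 26.8%, 26% and 23.1% in WT and 21.1%, 28.97% and 31.95% in KO, and the groups overlapped (exact permutation p = 0.5). A58 itself was read without mismatch in 99, 74 and 83 bases in WT and in 139 and 107 bases in KO replicates 1 and 3, with 3 of 103 bases (2.91%) read as T in KO replicate 2. Whether the starts at 59 are reverse-transcription stops or the ends of cut RNA was not tested.

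The 3′ ends of these reads often carried extra bases. After position 76, the A of CCA, 47.3%, 42.4% and 39.3% of the Ala-TGC-2 reads in WT and 40.8%, 38.1% and 49.5% in KO had an insertion (exact permutation p = 1). The inserted bases were T alone in all such reads except 1 of 28 in WT replicate 2, and mostly 1 or 2 bases long. In Ala-TGC-4, whose 3′ reads began at position 59, the share was 82.2% to 100% in the 5 libraries that listed it. Its inserted reads there numbered 43 and 27 in WT replicates 1 and 2 and 42, 37 and 48 in KO. Those of Ala-TGC-2 numbered 43 and 28, and 42, 37 and 51, in the same libraries. The higher share thus rests on lower coverage under nearly the same counts and is not a separate observation. Ala-TGC-1, a 3′ end that differs from that of Ala-TGC-2, had insertions in 0 of 44, 10 of 50 and 0 of 68 reads in the KO libraries.

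From position 16 to 18 in the D arm, 3 AGC references lost coverage, while the other members listed in all libraries at both positions did not. Coverage at position 18, relative to that at position 16, was 78.6% ± 4.31 over the 5 AGC references listed in all libraries and 101% ± 1.34 over the 3 TGC references with distinct counts (SD over 6 libraries). It was lower for AGC in 6 of 6 libraries, from 74.1% to 86.6%, with an exact sign-flip permutation p of 0.031, the smallest that 6 pairs can give, and 0.125 after adjustment over 4 such comparisons. The step was chosen after the data were seen, and the AGC value sums 5 unlike references. Those with the longer D loop (AGC-4, AGC-10 and AGC-5) kept 67.7% to 84.6% over the 6 libraries, while Ala-AGC-3 and Ala-AGC-8, whose 5′ stretch is that of Ala-TGC-2, kept 100% to 105%, so the step was not one of the AGC group as a whole. In Ala-AGC-10 coverage went from 124, 216 and 170 reads at base 16 to 84, 182 and 126 at base 17 in WT, and from 273, 283 and 248 to 195, 214 and 168 in KO. The share kept was 75.4% ± 8.33 in WT and 71.6% ± 3.94 in KO (exact permutation p = 0.7). After base 23 coverage fell below 40 reads in every library but KO replicate 1, where 78 remained.

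Site by site, no tRNA-Ala position was called as different between the genotypes. With at least 100 reads in each library, 0 of 3 mismatch sites, 0 of 15 stop sites and 0 of 2 insertion sites with distinct counts were called in tRNA-Ala, and no deletion site could be tested. At that minimum 0 tRNA-Ala sites had an unadjusted p under 0.05, and limma on arcsine-transformed rates called 0 as well. Over all references the quasi-binomial model called 0.385% of stop sites, and 0% of the sites for mismatch, deletion and insertion. With a minimum of 30 reads, 16, 36, 4 and 4 tRNA-Ala sites with distinct counts were tested for mismatch, stop, deletion and insertion, 0 were called, and at an unadjusted p under 0.05 there were 0, 2, 0 and 0. Over all references 0.236% of stop sites were called at that minimum, and 0% for the other measures. The genotypes did not overlap at 0 of 16, 2 of 36, 0 of 4 and 0 of 4 of these sites, against 4.37%, 12.1%, 10% and 3.77% over all references. The 2 stop sites with an unadjusted p under 0.05 were base 5 of Ala-TGC-2 and of Ala-TGC-4, which share reads, with starts at 5.26%, 9.76% and 0% of Ala-TGC-2 coverage in WT and 0% in each KO library (adjusted p 0.631). Among deletion sites listed in all 6 libraries, the highest pooled rate was at position 23 of Ala-AGC-8, in 3 of 37, 0 of 44 and 0 of 32 reads in WT and 0 of 88, 5 of 77 and 12 of 153 in KO. An inserted G after base 7 of Ala-AGC-10 was carried by 35 of 251 reads (13.9%) in KO replicate 1, by 2 of 216 in WT replicate 2 and by none in the other libraries.

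Some members were listed in KO alone. Ala-AGC-2 had 55, 37 and 68 reads in KO, Ala-AGC-6 had 67, 41 and 46, Ala-AGC-7 had 47, 38 and 33 and Ala-TGC-1 had 46, 50 and 71, and each had fewer than 30 at every position in all WT libraries. The KO libraries were deeper, the part of depth in this listing was not tested, and no fold is given for these members. Ala-TGC-5 was listed in KO replicate 1 alone, at 47 reads. Ala-CGC-5 and Ala-TGC-8 were listed in WT replicate 2 alone, at 43 and 39 reads. Ala-CGC-2 had 50 and 41 reads in WT replicates 1 and 2, was not listed in WT replicate 3, and had 55, 56 and 68 reads in KO.

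Ala-AGC-1 did not match its own reference in 2 of the 4 libraries that listed it. It had 83 reads in WT replicate 2 and 137, 36 and 65 in the KO libraries. In WT replicate 2 and KO replicate 1 the majority base differed from the reference at 6 shared positions, G27T, T31C, T37A, A40G, G42A and A57G, counted from 1 at the 5′ end of the reference. These calls made up 85% to 100% of bases in WT replicate 2 and 69.9% to 100% in KO replicate 1, where C61T was found too. WT replicate 2 was listed to base 59 only. In KO replicates 2 and 3 the calls were 1.54% to 5.56% where these positions were listed, and KO replicate 3 had a mismatch of 21.5% at base 24. The reference, the majority call and the start of Bc1 are set side by side, with the differing positions in capitals.
Ala-AGC-1 reference: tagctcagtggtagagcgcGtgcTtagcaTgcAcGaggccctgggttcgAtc
Ala-AGC-1 majority in WT replicate 2: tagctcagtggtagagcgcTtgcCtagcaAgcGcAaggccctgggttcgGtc
Bc1, first bases: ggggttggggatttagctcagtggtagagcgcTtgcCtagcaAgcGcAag

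Bc1 is a brain-enriched noncoding RNA whose 5′ part derives from an alanine tRNA. RefSeq places it on the plus strand at chr7:144914470-144914623 (GRCm38.p6), and its first bases were read from the RefSeq promoter window. Over bases 8 to 44 of the reference, the majority call equalled Bc1 at 37 of 37 positions in both libraries, and the reference equalled it at 32 of 37. Of 32851 promoter windows, 1 held these 37 bases, and the genome outside these windows was not searched. The share of reads from Bc1 was not tested, and the WT replicate 2 and KO replicate 1 values of Ala-AGC-1 are for this reason described apart from the other members, though the plot of highest coverage shows them. A34 of this reference was read as G in 0 of 72 bases in WT replicate 2 and in 3 of 97 in KO replicate 1, and A37 as T in 0 of 72 and 3 of 97.

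**Figure D4:**
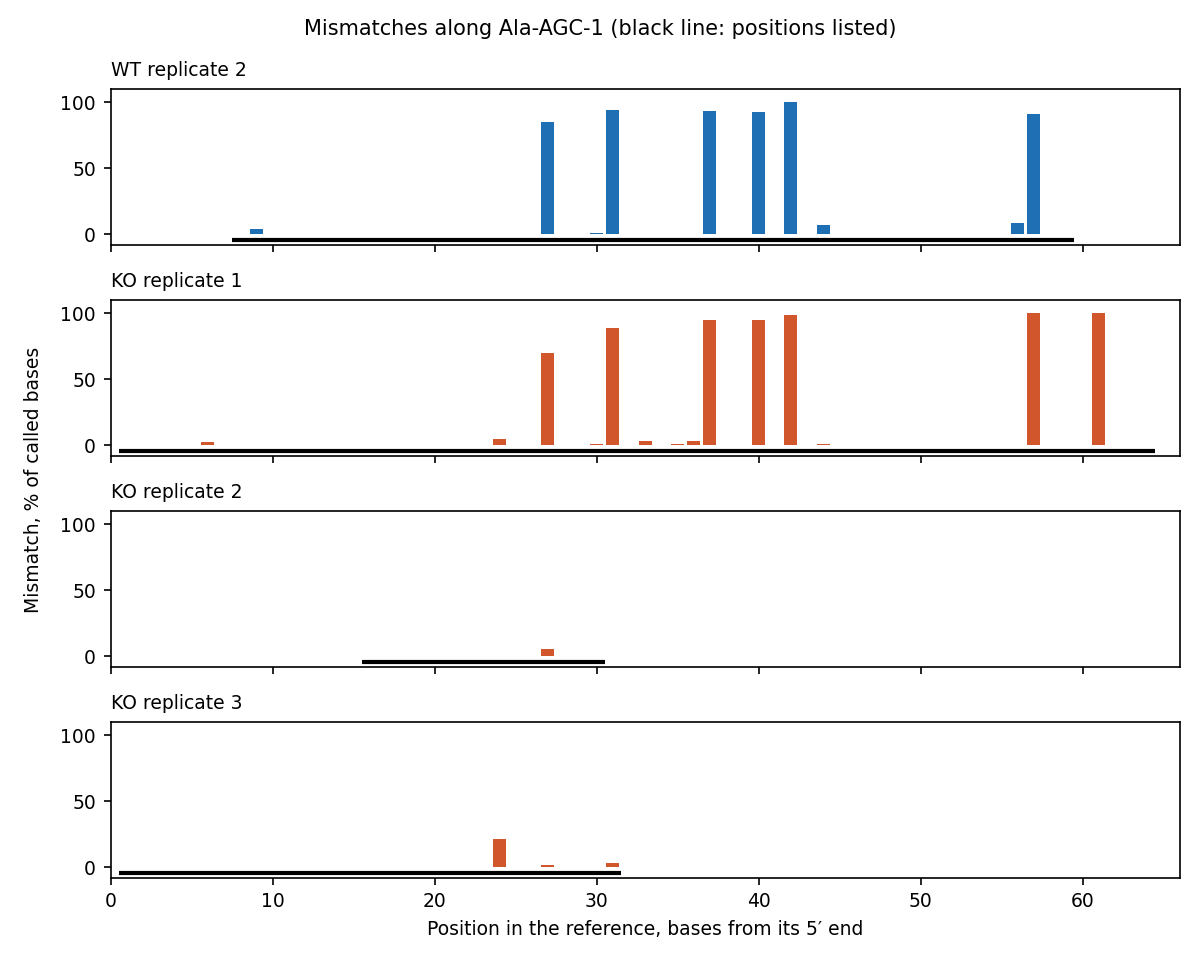
Mismatches along Ala-AGC-1, in percent of called bases, by position in the reference, for the 4 libraries that listed it (blue WT, orange KO); the black line marks the listed positions. WT replicate 2 and KO replicate 1 share 6 positions at 69.9% or more. Of those positions, KO replicate 2 listed base 27 alone and KO replicate 3 listed bases 27 and 31, at 5.56% or less.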

How the data were processed

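Small RNA of 3 WT and 3 KO mouse brain libraries was analysed. Per the file headers, the deposited tables hold per-position counts along tRNA references (coverage, A, T, C and G calls, stops, deletions and insertions), with mean and median base quality as a score. Per the submitters' processing notes GATK 3.5 was used, with no role given, and the aligner, reference set and genome build are not given in the sources used here. Positions with fewer than 30 reads were not listed. A stop was moved to the first base of the reads it counts. Canonical positions were assigned from the anticodon and D loop.

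Abundance was the highest per-position coverage, tested with edgeR 4.0.16 (quasi-likelihood, TMM, filterByExpr). DESeq2 1.42.0 was an alternative. Site rates were tested with a quasi-binomial model moderated by limma 3.58.1 in R 4.3.3, at a coverage minimum of 100 in each library and a pooled rate of at least 1%. The 5′ to 3′ log2 ratio was tested with limma. Adjusted p-values are Benjamini-Hochberg over all references or sites, at 0.05. Standard errors come from the test statistic. Single values used exact two-sided permutation tests. Wilson 95% intervals and floors of 3 reads cover counting error only, and reads carry no molecular identifiers. The models for site rates, abundance and the 5′ to 3′ ratio were tested on simulated data. With odds changed 4-fold, 20.6% of changed mismatch sites, 35% of stop, 40% of deletion and 25% of insertion sites were recovered. With odds changed 16-fold these shares were 82.4%, 82.5%, 86.7% and 50%. A site left uncalled can thus still differ. The members, lists and tests were chosen with earlier results of these data known. Named were all tRNA-Ala references (identical copies once), positions 26, 34, 37 and 58, called sites, and the sites of highest pooled rate per measure. Ala-CGC-5 and Ala-TGC-8 were not numbered. Genotype was not checked against Trmt1l.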

Additional observations from a re-analysis of the deposited data

How the results depend on the processing

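Of 141 checks on counts of calls and group values, 122 kept their direction and side of the threshold. Among further checks on values of single members, 87 did so, 4 were stronger, 15 were weaker and 14 were reversed. Counts here include both identical copies. The count of called tRNA-Ala abundances (1) was 1 in every planned setting except that it ran from 1 to 3 when libraries were left out, and it was 5 when references listed in any library entered with unlisted values at 29 reads, a setting chosen after seeing the data. In that setting AGC-8, TGC-4 and TGC-6 were called as higher, and CGC-5 and TGC-8, with 5 of 6 values set, as lower. The count in the 5′ part (4) fell to 1 with upper-quartile scaling, with DESeq2 and with the replicate block, rose to 6 with median coverage, and ran from 1 to 4 over the omissions. The count in the 3′ part (1) fell to 0 with median coverage and with the replicate block, and ran from 0 to 1. Upper-quartile scaling moved the median log2 fold change of all references to -0.49. Under it AGC-10 stood at -0.29, AGC-3 at -0.13 and TGC-2 at -0.47, all above that median. TGC-2 was at -0.0111 with DESeq2 and -0.0632 without references at the depth limit, and AGC-10 at -0.0112 with median coverage. With libraries left out, AGC-10 ran from -0.0189 to 0.38, AGC-3 from -0.0257 to 1.02 and TGC-2 from -0.0913 to 0.18. The difference in mismatch at position 37 of TGC-6, -1.05 points, ran from -3.79 to 1.80. The causes of these changes were not tested.

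The replicate numbers did not pair the libraries, with correlations of same-numbered deviations in abundance of 0.1001, 0.037 and 0.090, and the replicate block changed no other call. Most members had fewer than 100 reads, so few sites were tested, and rates of a few percent were not detectable. Reads shared between copies and the listing minimum limit every comparison between members.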
